A study of Homo sapiens with 10 samples.

Results

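The genes described here encode the cytoplasmic and nuclear machinery that destroys mRNA: the CCR4-NOT and PAN2-PAN3 deadenylase complexes, the decapping enzymes with their LSM1 to LSM7 ring, the 5′ exonucleases, the RNA exosome and the factors of nonsense-mediated decay (NMD). The list holds 46 gene symbols, and all 46 were found among the 59204 human genes in the count tables. The cells were K562, an established line from chronic myeloid leukaemia, treated for 2 h in 5 groups of 2 libraries each. The groups were actinomycin D (ActD, 1 µg/mL), which intercalates into DNA and stops RNA polymerases; AZ-5576 (1 µM), an inhibitor of the pause-release kinase CDK9; JQ1 (1 µM), an inhibitor of BET bromodomains; A-485 (1 µM), an inhibitor of the acetyltransferases p300 and CBP; and the vehicle DMSO. All groups, DMSO included, received 100 µM 4-thiouridine in the final 1 h, so that RNA made in that hour carries T-to-C conversions. Reads with such conversions are called labelled and stand for new RNA, and all human reads together are called total and stand for the mRNA pool. The series' title names RNA decay and the response of leukaemia cells to drugs that act on transcription, and each drug was compared with DMSO in both kinds of RNA.

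Most mRNA decay starts with removal of the poly(A) tail. The message is then either decapped by DCP2 and digested from the 5′ end by XRN1, or digested from the 3′ end by the exosome. NMD sends messages with a premature stop codon into the same pathways, through the helicase UPF1 and its kinase SMG1. The mRNAs that encode these proteins are themselves made by RNA polymerase II and are themselves degraded, which is what was counted here.

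Total human counts ran from 14916671 to 17918971 per library and spike-in counts from Drosophila S2 RNA from 1817677 to 2212752, so raw counts of different libraries can be set side by side to within that range of spike-in. In labelled counts, the ActD libraries held 1410 and 1614, the AZ-5576 libraries 53503 and 62513, the JQ1 libraries 342847 and 322771, the A-485 libraries 411716 and 447455, and the DMSO libraries 448401 and 434411. Because the fly RNA went into RNA already purified, levels are per amount of RNA; in such bulk samples fewer cells and less RNA per cell cannot be told apart. The labels do not say whether replicates came from separate cultures, so p-values measure only the spread between these libraries, which may be technical. An erythroid and megakaryocytic list of 8 genes that mark K562 summed to 58508 to 74187 total counts per library. A list of 11 markers of other lineages summed to 5108 to 6411, of which KRT19 gave up to 3978, and MS4A1 and MPO were at 0 in every library. Counting strand is not given in the sources used here, and 30 of the 46 genes overlap a gene on the opposite strand, so reads of EXOSC9 and CCNA2, of DIS3 with BORA and PIBF1, of LSM3 and XPC, and of DCP1A and CACNA1D may not be told apart.

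In DMSO, the decay genes differed widely in how much of their mRNA was new, and by role the LSM ring had the lowest median. The measure is the labelled share, the percentage of a gene's total counts that carried conversions after 1 h of label. It was not corrected for the number of T bases a read covers. Over the 45 genes with at least 50 total counts in each DMSO library, the median share was 4.05%, against 3.66% over 10168 genes that met the same minimum, whose quartiles were 1.74% and 7.38%. Of the 45, 25 lay above the median of all genes and 10 above its upper quartile. By role, the median share was 10.8% for the 5′ exonucleases XRN1 and XRN2 and 7.63% for the 6 deadenylase genes. It was 5.12% for the 7 genes grouped as non-catalytic CCR4-NOT subunits, CNOT4 among them. The median was 4.00% for NMD, 3.90% for decapping, 3.17% for the exosome and 2.02% for the LSM ring. The 5′ exonucleases did not rank above the deadenylases in both libraries. Their summed counts were 18 labelled of 302 total in DMSO replicate 1 and 50 of 347 in replicate 2. Those of the deadenylases were 259 of 3752 and 220 of 3940.

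The highest share belonged to CNOT4, the E3 ubiquitin ligase of the CCR4-NOT family (chr7:135361795-135510127, minus strand, hg38 with GENCODE 29), at 26.5% and 29.4% in the 2 DMSO libraries. SMG1, the kinase that phosphorylates UPF1, followed at 22.9% and 18.6%. DCP1A, a coactivator of the decapping enzyme, had 21.0% and 19.1%. CNOT8, a CAF1-type deadenylase, had 16.7% and 11.5%. The share of XRN1 was 7.45% and 17.3%, a spread between replicates as wide as its distance from most of the list. These 5 genes had the highest means of the 45, but only CNOT4, SMG1 and DCP1A lay above the other 40 in both libraries. PAN3, the adaptor of the PAN2 deadenylase, at 13.2% and 10.8%, and XRN2, at 5.29% and 13.3%, overlapped both CNOT8 and XRN1, and the lower XRN1 library lay below both libraries of DIS3, at 9.07% and 8.24%. SMG1 has 7 annotated pseudogenes whose reads, 23 total and 9 labelled over both DMSO libraries, may be exchanged with its own.

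At the low end, SMG6, the NMD endonuclease, had 0% and 1.65%, from 0 and 3 labelled counts. LSM4 had 1.02% and 0.744%, EXOSC10, the nuclear exosome exonuclease, 0.903% and 1.30%, CNOT11, of the amino-terminal CCR4-NOT module, 1.35% and 0.910%, and EXOSC5, of the exosome ring, 1.31% and 1.08%. The replicates of these 5 overlapped in all pairs except LSM4 and EXOSC5, so apart from that pair their order is within the spread of replicates. Genes grouped under one role could differ. In the CCR4-NOT group, CNOT4 at 27.9% ± 2.00 and CNOT11 at 1.13% ± 0.314 (SD, n = 2 each) stood near opposite ends of the list.

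The sequences before the start sites of 4 genes are shown as examples from the contrasts between drugs. LSM3 and EXOSC9 had higher new RNA with A-485 than with JQ1. DIS3 is an exosome gene whose JQ1 value stood above DMSO without being called. CNOT4 had higher total RNA with AZ-5576 than with ActD. Whether these sequences bear on the contrasts was not tested. Each run is the 250 bases before the annotated start in RefSeq (GRCh38.p14), 5′ to 3′ on the gene's strand, in lower case. Capitals mark matches, on either strand, to 5 motifs searched by their letters: the TATA-box string TATAAA, the box named for its letters CCAAT, the E-box CACGTG that MYC and MAX bind, the NRF1 core GCATGC, and the ETS-family core CGGAAG.
LSM3, chr3:14178567-14178816, plus strand: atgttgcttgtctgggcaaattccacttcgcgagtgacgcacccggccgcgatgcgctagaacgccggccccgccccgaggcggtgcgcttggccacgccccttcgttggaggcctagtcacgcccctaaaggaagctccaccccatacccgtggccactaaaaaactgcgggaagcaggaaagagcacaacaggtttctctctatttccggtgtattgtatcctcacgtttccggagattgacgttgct
EXOSC9, chr4:121801073-121801322, plus strand: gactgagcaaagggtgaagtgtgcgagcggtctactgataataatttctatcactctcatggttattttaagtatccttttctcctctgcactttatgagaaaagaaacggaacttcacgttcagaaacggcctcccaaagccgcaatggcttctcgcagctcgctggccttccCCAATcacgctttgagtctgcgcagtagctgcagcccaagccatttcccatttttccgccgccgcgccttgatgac
DIS3, chr13:72781901-72782150, minus strand: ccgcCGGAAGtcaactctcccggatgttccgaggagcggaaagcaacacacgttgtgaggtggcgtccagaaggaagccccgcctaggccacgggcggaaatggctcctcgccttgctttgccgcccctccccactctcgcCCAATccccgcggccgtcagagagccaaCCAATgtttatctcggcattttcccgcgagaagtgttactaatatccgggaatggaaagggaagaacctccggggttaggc
CNOT4, chr7:135510103-135510352, minus strand: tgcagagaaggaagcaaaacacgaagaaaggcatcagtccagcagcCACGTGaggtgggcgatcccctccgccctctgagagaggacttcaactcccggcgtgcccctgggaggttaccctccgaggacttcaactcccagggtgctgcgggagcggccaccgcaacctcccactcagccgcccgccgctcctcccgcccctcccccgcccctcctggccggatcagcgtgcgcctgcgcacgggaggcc
EXOSC9 held 1 CCAAT starting at position -76 from the start site, DIS3 held 2 at -109 and -81 and 1 CGGAAG at -246, and CNOT4 held 1 CACGTG at -204. LSM3 held none of the 5 strings.

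Over the 40 of the 46 genes with a RefSeq window, CCAAT was present in 16 (40.0%), against 32.0% of 35116 windows of the same length. CGGAAG was present in 12 (30.0%, against 16.5%), CACGTG in 4 (10.0%, against 6.34%), GCATGC in 3 (7.5%, against 6.21%) and TATAAA in 1, EXOSC8 (2.50%, against 10.7%). CCAAT was in 7 of the 19 matched genes called lower in labelled RNA with JQ1 and in 7 of the 17 tested genes that were not called, and CGGAAG in 4 of 19 and 7 of 17. A match is a string in a window and not a site shown to be bound.

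ActD and AZ-5576 removed nearly all new RNA of the decay genes. Summed over the 46 genes, the ActD libraries held 0 and 1 labelled counts, the AZ-5576 libraries 61 and 73, the JQ1 libraries 1442 and 1247, the A-485 libraries 2453 and 2649, and the DMSO libraries 2512 and 2451. Per 1000000 spike-in counts this came to 0.230 ± 0.325 for ActD, 34.4 ± 1.47 for AZ-5576, 621 ± 43.5 for JQ1, 1290 ± 63.6 for A-485 and 1337 ± 16.4 for DMSO (SD, n = 2 each). Relative to DMSO, ActD left 0.0172% of the genes' new RNA, AZ-5576 2.57%, JQ1 46.4% and A-485 96.5%, beside 0.303%, 12.5%, 64.7% and 91.4% of all human labelled RNA. As sums, which weigh strongly labelled genes most, the 3 drugs with the largest effect left a smaller part of the decay genes' new RNA than of all new RNA. A-485 left a larger part. The ActD value rests on 1 labelled count. Per gene, the median log2 change over the 42 tested decay genes was -8.61 with ActD and -6.71 with AZ-5576. Over all 7996 genes tested it was -7.67 and -5.94. That difference was not tested.

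**Figure D1:**
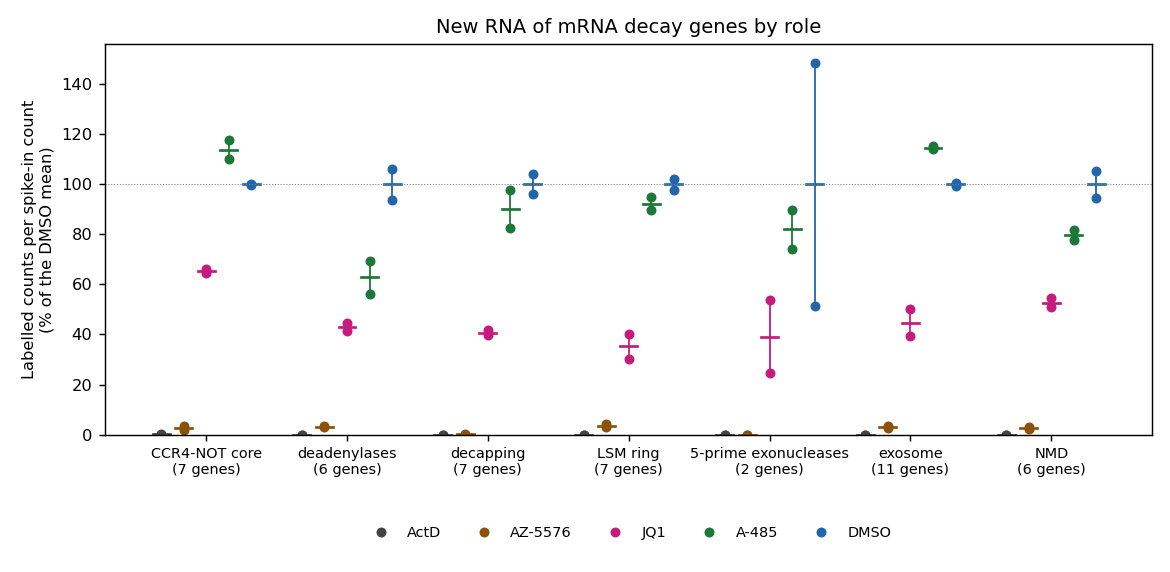
Labelled counts of the decay genes, summed by role and divided by the spike-in total, as a percentage of the DMSO mean (y axis); points are libraries, the horizontal bar is the mean of the 2 libraries of a group and the vertical line joins them. In each of the 7 roles ActD and AZ-5576 lie near 0 and JQ1 lies below A-485, while the 2 DMSO libraries of the 5′ exonucleases (2 genes) lie far apart, with 18 and 50 labelled counts.

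With ActD, 45 of the 46 genes had 0 labelled counts in both libraries, and CNOT10, of the amino-terminal CCR4-NOT module, had 1 count in replicate 2. Against a floor of 3 counts over the group, CNOT1, the scaffold of CCR4-NOT, was at least 121-fold lower (0 and 0 counts with ActD, 188 and 133 with DMSO). DDX6, the helicase that couples deadenylation to decapping, was at least 120-fold lower (0 and 0 with ActD, 158 and 162 with DMSO), UPF2, a cofactor of UPF1, at least 92.5-fold and CNOT4 at least 78.6-fold. Bounds for the 44 genes that allowed one ran from 2.63-fold for DCP1B, which had 7 counts in DMSO, to that of CNOT1. Of the 46 genes 42 had enough labelled counts to be tested (PAN2, DCP1B, SMG5 and SMG6 did not), and edgeR called 42 of 42 lower at an adjusted p under 0.05, where the background over 7996 genes was 99.2% lower and 0% higher.

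With AZ-5576, 42 of 42 were called lower as well, beside a background of 94.7% lower and 0.200% higher. Here 22 genes had 0 counts in both libraries, 11 had 1 to 3 counts and 13 had more. CNOT1 was at least 112-fold lower and DDX6 at least 112-fold lower, each with 0 and 0 counts with AZ-5576. Not a single labelled count was found for the catalytic decapping subunit DCP2, for DCP1A, EDC3, EDC4 or PATL1, or for XRN1 and XRN2. The decapping genes as a group kept 0.140% of their DMSO level, from 0 and 1 labelled counts with AZ-5576 and 316 and 328 with DMSO. That 1 count was of DCP1B, which was not tested. DIS3, the catalytic exosome subunit, kept 11.7% (95% exact interval 5.84 to 21.4%, covering counting error only; 6 and 6 counts with AZ-5576, 48 and 50 with DMSO). EXOSC9 kept 6.42% (3.61 to 10.6%; 7 and 9 counts with AZ-5576, 136 and 102 with DMSO) and CNOT4 kept 6.40% (3.44 to 11.0%; 11 and 3 counts with AZ-5576, 91 and 118 with DMSO). LSM7 kept 5.92% (3.18 to 10.1%) and LSM1 5.08% (2.74 to 8.68%), with the counts of LSM1 split 3 and 11 between libraries. PAN3 kept 12.2% (4.67 to 26.8%), with 1 and 6 counts with AZ-5576 and 27 and 28 with DMSO; its log2 value of -3.01 was -2.32 without AZ-5576 replicate 1, and 1 count remained without replicate 2. DIS3 and PAN3 were called lower per spike-in only: on TMM scaling, which moved the median log2 change of all genes up by 2.89, their values were 0.47 and 0.50, and with DESeq2 on its own size factors DIS3 stood at -0.07. SMG6, not tested, had 1 and 4 counts with AZ-5576 against 0 and 3 with DMSO, too few to set a direction.

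JQ1 lowered new RNA of many of the decay genes, among them all 7 LSM ring genes and 6 of 11 exosome genes. In all, 21 of the 42 tested genes (50.0%) were called lower and 0 higher, beside a background of 28.6% lower and 1.26% higher over 7996 genes. The 0 stood at 0 at an unadjusted p under 0.05 also, beside 152 higher among the 7996 genes, and DESeq2 on the same scale called 0 higher. The median log2 change was -1.39 over the 42 genes and -0.85 over all genes. By role, 2 of 7 CCR4-NOT subunits, 2 of 5 deadenylases, 2 of 6 decapping genes, 0 of 2 5′ exonucleases and 2 of 4 NMD genes were called. Summed labelled RNA per spike-in was 35.2% of DMSO for the LSM ring, 39.1% for the 5′ exonucleases, 40.8% for decapping, 42.9% for the deadenylases, 44.8% for the exosome, 52.7% for NMD and 65.4% for the CCR4-NOT subunits. The share of genes called did not follow this order, and differences between roles were not tested.

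In the LSM ring, which binds shortened tails together with PATL1 and promotes decapping, LSM3 had 25 and 23 labelled counts with JQ1, 102 and 125 with A-485, and 108 and 93 with DMSO. The JQ1 libraries lay below all others that were not ActD or AZ-5576, and LSM3 fell by 2.28 ± 0.36 on the log2 scale (SE; edgeR adjusted p = 3.4e-08). LSM3 has 4 pseudogenes, with 60 total and 38 labelled counts over both DMSO libraries. LSM4 fell by 1.97 ± 0.48 (24 and 8 counts with JQ1, 62 and 46 with DMSO; adjusted p = 0.00045), LSM7 by 1.70 ± 0.32 (47 and 34, against 126 and 100; adjusted p = 3.6e-06) and LSM2 by 1.64 ± 0.35 (52 and 24, against 107 and 96; adjusted p = 6.4e-05). LSM5, LSM6 and LSM1 were called at -1.79, -1.58 and -0.75, but LSM1 stood at 0.11 on TMM scaling and the calls of all 3 were lost without either DMSO library.

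Among exosome genes, which form the barrel and cap of the 3′ nuclease, EXOSC3, a cap subunit, fell by 2.52 ± 0.54 (9 and 10 counts with JQ1, 33 and 61 with DMSO; edgeR adjusted p = 7.6e-05). EXOSC9, a ring subunit, had 38 and 36 counts with JQ1, 144 and 117 with A-485, and 136 and 102 with DMSO, and fell by 1.90 ± 0.32 with JQ1 (adjusted p = 2.3e-07). EXOSC5, EXOSC2 and EXOSC8 fell by 2.37, 1.71 and 1.39. EXOSC7 was called at -2.26, but its JQ1 libraries held 27 and 1 counts, and the value was -1.34 without JQ1 replicate 2, the library with 1 count. The 2 exosome nucleases did not follow one pattern. EXOSC10 had 1 and 6 counts with JQ1 and 10 and 15 with DMSO (log2 -2.01 ± 0.87, adjusted p = 0.062). DIS3 had 79 and 63 counts with JQ1, 61 and 77 with A-485, and 48 and 50 with DMSO, at 0.31 ± 0.36 over DMSO (adjusted p = 0.53). DIS3 and UPF3B, an NMD factor of the exon junction complex, at 0.52 ± 0.62, were the only 2 of the 42 with a positive value, and on TMM scaling, which moved the median of all genes up by 0.86, DIS3 was called higher at 1.17.

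Among the deadenylase and decapping genes, those called lower were CNOT8, CNOT6, DDX6 and EDC3. CNOT8 had 20 and 11 counts with JQ1 and 69 and 54 with DMSO and fell by 2.20 ± 0.49 (edgeR adjusted p = 0.00011), whereas its paralog CNOT7 stood at -0.74 ± 0.37 (adjusted p = 0.12). CNOT6 fell by 1.93 ± 0.55 (15 and 11 with JQ1, 50 and 36 with DMSO; adjusted p = 0.0034), whereas its paralog CNOT6L stood at -0.36 ± 0.51 (adjusted p = 0.61). The difference within either pair was not tested. DDX6 fell by 1.95 ± 0.30 (45 and 51 counts with JQ1, 158 and 162 with DMSO; adjusted p = 5.5e-09). EDC3, an enhancer of decapping, had the lowest value at -3.00 ± 0.94, from 3 and 1 counts with JQ1 and 16 and 13 with DMSO. DCP1A, DCP2, CNOT1, CNOT4, XRN1, XRN2 and UPF1 stood between -1.59 and -0.23 and were not called. UPF2 fell by 1.57 ± 0.33 (43 and 53 with JQ1, 120 and 126 with DMSO; adjusted p = 3.3e-05).

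Of the 21 calls, 12 held whichever of the 4 libraries was left out: CNOT8, DDX6, LSM2, LSM3, LSM4, LSM7, EXOSC3, EXOSC5, EXOSC7, EXOSC8, EXOSC9 and UPF2. CNOT9 and LSM6 were lost without any of the 4. CNOT6 was lost without DMSO replicate 1; EDC3 without that library or JQ1 replicate 2; CNOT11, LSM1 and SMG1 without either DMSO library or JQ1 replicate 2; LSM5 without either DMSO library or JQ1 replicate 1; and EXOSC2 without DMSO replicate 1 or either JQ1 library. Without JQ1 replicate 1 the log2 values were lower still for LSM2 (-2.26), LSM4 (-2.92), CNOT11 (-2.33) and SMG1 (-1.53), EDC3 and EXOSC7 were left with 1 count each, and without JQ1 replicate 2 LSM5 was at -2.40. On TMM scaling 5 of the 21 were still called lower, DDX6, LSM3, EXOSC3, EXOSC7 and EXOSC9. Both JQ1 libraries lay below both DMSO libraries in 35 of the 42 genes and in 62.9% of all genes tested.

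**Figure D2:**
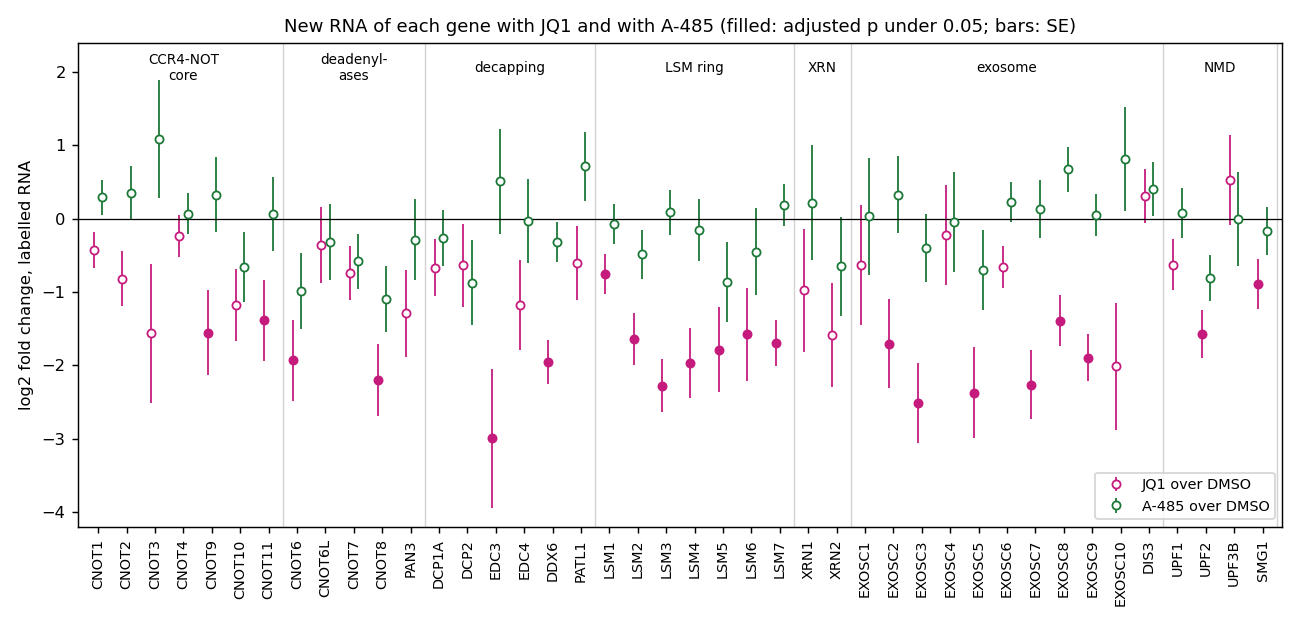
Log2 fold change in labelled RNA over DMSO for each of the 42 tested decay genes (x axis, by role; XRN marks the 5′ exonucleases), with JQ1 and with A-485; points are edgeR estimates on the spike-in scale, bars are standard errors and filled points have an adjusted p under 0.05. With JQ1, 40 of 42 points lie below 0 and 21 are filled; with A-485 the points lie on both sides of 0 and 0 are filled.

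A-485 left new RNA of the decay genes near the DMSO level. It was called lower in 0 and higher in 0 of 42 genes by edgeR, beside a background of 4.86% lower and 0.163% higher. At an unadjusted p under 0.05 there were 2 lower and 1 higher, beside 850 lower and 177 higher among all 7996 genes. DESeq2 called 0 of the 42. Values ran from -1.10 ± 0.45 for CNOT8 (28 and 33 counts with A-485, 69 and 54 with DMSO) to 1.09 ± 0.80 for CNOT3, a NOT-module subunit, and the SE of weakly labelled genes such as CNOT3 (23 and 18 counts with A-485, 8 and 10 with DMSO) was wide. UPF2 stood at -0.81 ± 0.31 (65 and 84 counts with A-485, 120 and 126 with DMSO) and EXOSC8 at 0.67 ± 0.31 (132 and 144, against 75 and 87), in both cases with no overlap between the groups. Such a lack of overlap was common: A-485 lay below DMSO in 10 of the 42 genes and above it in 8, beside 28.7% and 18.4% of all genes tested. In a fit of the 4 libraries of A-485 and DMSO alone, UPF2 and CNOT8 were called lower. Summed by role, the deadenylases stood at 62.8% of DMSO, NMD at 79.8%, the 5′ exonucleases at 82.0%, decapping at 90.3%, the LSM ring at 92.3%, the CCR4-NOT subunits at 114% and the exosome at 115%.

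Set directly against JQ1, the summed new RNA was higher with A-485 in each of the 7 roles. Of 42 genes 20 were called higher with A-485 than with JQ1 and 0 lower, beside a background of 24.8% higher and 3.14% lower. The calls were 8 of 11 exosome genes, 5 of 7 CCR4-NOT subunits, 4 of 7 LSM genes and 3 of 6 decapping genes, with 0 of 5 deadenylases, 0 of 2 5′ exonucleases and 0 of 4 NMD genes; differences between roles were not tested. The highest value was that of EDC3 (19 and 25 counts with A-485, 3 and 1 with JQ1), higher by 3.51 ± 0.92 (edgeR adjusted p = 0.0015). LSM3 was higher by 2.36 ± 0.36 (adjusted p = 5.8e-09), EXOSC8 by 2.06 ± 0.33 (132 and 144 with A-485, 39 and 33 with JQ1; adjusted p = 4.3e-08), EXOSC9 by 1.94 ± 0.32 (adjusted p = 8.4e-08), LSM7 by 1.89 ± 0.32 (145 and 129, against 47 and 34; adjusted p = 1.3e-07) and DDX6 by 1.64 ± 0.30 (106 and 168, against 45 and 51; adjusted p = 1.8e-06). EXOSC10 (22 and 25 with A-485, 1 and 6 with JQ1) was called at 2.82 and CNOT3 (23 and 18 with A-485, 7 and 0 with JQ1) at 2.65; EXOSC10 was at 2.04 without JQ1 replicate 1 and CNOT3 at 1.69 without JQ1 replicate 2. Neither DIS3 (0.09 ± 0.35) nor CNOT4 (0.30 ± 0.28), CNOT7 (0.16 ± 0.38), DCP1A (0.41 ± 0.39) or UPF1 (0.71 ± 0.35) was called.

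Of these 20 calls, 8 held without any 1 of the 4 libraries: EDC3, DDX6, LSM3, LSM7, EXOSC3, EXOSC7, EXOSC8 and EXOSC9. The count was 10 without A-485 replicate 2, 12 without JQ1 replicate 2, 15 without A-485 replicate 1 and 16 without JQ1 replicate 1. EXOSC7 was at 1.48 without JQ1 replicate 2, and EXOSC2, called at 2.03, was at 1.20 without A-485 replicate 2. Without JQ1 replicate 1, LSM2, CNOT11 and LSM4 were at 1.77, 2.39 and 2.76. On TMM scaling, which moved the median of all genes down by 0.63, 7 were called higher: EDC3, DDX6, LSM3, LSM7, EXOSC7, EXOSC8 and EXOSC9.

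In the mRNA pool, all 46 genes could be tested, and most of the changes after 2 h were small. No gene of the list was called higher over DMSO with any drug per spike-in, by edgeR or by DESeq2. At an unadjusted p under 0.05 the counts of higher genes were 0 for ActD, AZ-5576 and JQ1 and 1 for A-485. Among all 14572 genes those counts were 108, 279, 294 and 198 for the 4 drugs in that order. Summed per spike-in, total RNA of the decay genes stood at 88.2% of DMSO for ActD, 92.0% for AZ-5576, 85.1% for JQ1 and 99.5% for A-485, beside 92.7%, 97.7%, 91.1% and 98.1% for all human RNA. The LSM ring kept 96.8% with ActD and 99.6% with AZ-5576, and 0 of its 7 genes were called with any of the 4 drugs on the spike-in scale, although LSM4 and LSM7 were called higher with ActD on TMM scaling. The 5′ exonucleases stood at 79.8%, 74.8%, 71.9% and 98.1% with ActD, AZ-5576, JQ1 and A-485, the decapping genes at 81.4%, 82.0%, 80.1% and 96.6%, NMD at 82.3%, 83.1%, 83.8% and 103%, and the exosome at 84.0%, 87.0%, 82.4% and 101%.

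With ActD, 13 of 46 genes (28.3%) were called lower and 0 higher, beside a background of 19.7% lower and 0.336% higher over 14572 genes, with a median log2 change of -0.24 in the 46 and -0.27 in all. CNOT4 had 123 and 164 total counts with ActD and 343 and 402 with DMSO, and fell by 1.56 ± 0.17 (edgeR adjusted p = 4.9e-09). DCP1A had 194 and 192 with ActD and 286 and 345 with DMSO, and fell by 0.88 ± 0.18 (adjusted p = 0.00034). Both ActD libraries lay below both DMSO libraries in each, as they did in 29 of the 46 genes and in 52.3% of all genes tested. In the exosome, 6 of 11 genes were called: EXOSC3 (1092 and 1057 with ActD, 1463 and 1495 with DMSO) fell by 0.63 ± 0.12 and EXOSC9 (1896 and 1838, against 2373 and 2384) by 0.52 ± 0.11, followed by EXOSC2, DIS3, EXOSC4 and EXOSC6 at -0.46, -0.42, -0.34 and -0.29. UPF2 fell by 0.62 ± 0.10 (1522 and 1644, against 2212 and 2099; adjusted p = 2.1e-05), DDX6 by 0.52 ± 0.12 (1262 and 1680, against 1798 and 1930), SMG1 by 0.44 ± 0.15, CNOT2 by 0.43 ± 0.13 and CNOT7 by 0.30 ± 0.10. CNOT1 (-0.28 ± 0.11), CNOT6L (-0.38 ± 0.16), XRN1 (-0.33 ± 0.26), XRN2 (-0.32 ± 0.20), LSM1 (-0.20 ± 0.11) and UPF1 (-0.03 ± 0.11) were not called.

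The calls of CNOT4, DCP1A, EXOSC3, EXOSC9 and UPF2 with ActD held without any 1 of the 4 libraries, and these were the 5 calls left without ActD replicate 1 and without DMSO replicate 2. Without those libraries CNOT2, CNOT7, DDX6, EXOSC2, EXOSC4, EXOSC6, DIS3 and SMG1 were lost; CNOT7 was lost also without ActD replicate 2, and EXOSC6 and SMG1 also without DMSO replicate 1. TMM scaling moved the median of all genes up by 0.25, kept CNOT4, DCP1A and UPF2 as lower and called EXOSC5 (0.29), LSM4 (0.29) and LSM7 (0.27) higher, genes that stood near 0 per spike-in.

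With AZ-5576, 8 of 46 genes (17.4%) were called lower and 0 higher, beside a background of 12.9% lower and 0.782% higher. DCP1A had 176 and 225 counts with AZ-5576 and 286 and 345 with DMSO, and fell by 0.73 ± 0.18 (edgeR adjusted p = 0.0035). XRN2, the nuclear 5′ exonuclease, which also acts in transcription termination, had 134 and 179 with AZ-5576 and 208 and 249 with DMSO, and fell by 0.62 ± 0.20 (adjusted p = 0.034). UPF2 fell by 0.54 ± 0.10 (1391 and 1710, against 2212 and 2099; adjusted p = 0.00016), DDX6 by 0.47, EXOSC3 and EXOSC6 by 0.45 each, EXOSC4 by 0.37 and EXOSC9 by 0.36. UPF2 alone kept its call without each of the 4 libraries in turn; DCP1A, DDX6, XRN2, EXOSC4, EXOSC6 and EXOSC9 were lost without AZ-5576 replicate 1, and EXOSC3 and, again, XRN2, EXOSC4 and EXOSC9 without replicate 2. Without DMSO replicate 2 the calls of DCP1A, DDX6, XRN2, EXOSC3, EXOSC4 and EXOSC9 were lost. On TMM scaling, which moved the median of all genes up by 0.15, EXOSC1, an exosome cap gene, was called higher at 0.35.

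CNOT4 was the 1 gene of the list called between ActD and AZ-5576 in total RNA. It had 286 and 322 total counts with AZ-5576, against 123 and 164 with ActD, a difference of 1.19 ± 0.17 on the log2 scale (edgeR adjusted p = 8.2e-06) that held without each of the 4 libraries in turn, between 1.05 and 1.36, and on TMM scaling at 1.09. It was the only 1 of 46 genes called between these drugs, beside a background of 2.00% higher and 0.371% lower with AZ-5576. Against DMSO, CNOT4 with AZ-5576 stood at -0.36 ± 0.16 (adjusted p = 0.14). Its new RNA was low with both drugs, at 11 and 3 labelled counts with AZ-5576 and 0 and 0 with ActD.

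With JQ1, 7 of 46 genes (15.2%) were called lower in the pool and 0 higher, beside a background of 7.35% lower and 0.837% higher. UPF2 had 1613 and 1560 counts with JQ1 and 2212 and 2099 with DMSO, and fell by 0.66 ± 0.10 (edgeR adjusted p = 2.9e-05). DDX6 fell by 0.57 ± 0.12 (1396 and 1528, against 1798 and 1930; adjusted p = 0.0011), EXOSC9 by 0.53 ± 0.11 (2075 and 1766, against 2373 and 2384; adjusted p = 0.00073) and CNOT9, the CCR4-NOT subunit that binds repressor peptides, by 0.46 ± 0.12. EXOSC3, EXOSC2 and EXOSC6 were called at -0.45, -0.38 and -0.34. UPF2 and EXOSC9 held without each of the 4 libraries in turn; DDX6 was lost without DMSO replicate 2, CNOT9 without DMSO replicate 1 or JQ1 replicate 2, EXOSC3 without DMSO replicate 2 or JQ1 replicate 2, EXOSC2 without either DMSO library or JQ1 replicate 1, and EXOSC6 without either DMSO library or JQ1 replicate 2. Of the 7, the 6 other than EXOSC6 were also called lower in labelled RNA with JQ1; the labelled counts are part of the totals. CNOT4 had 480 and 422 total counts with JQ1, at 0.05 ± 0.16 over DMSO.

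With A-485, edgeR called 0 of 46 genes lower and 0 higher in the pool, beside a background of 1.20% lower and 0.0343% higher. At an unadjusted p under 0.05 there were 0 lower and 1 higher, beside 843 lower and 198 higher among all 14572 genes. DESeq2 called 0 of the 46. The values for CNOT4 (0.02 ± 0.16), DDX6 (-0.11 ± 0.12), EXOSC10 (0.01 ± 0.12) and UPF1 (0.25 ± 0.11) lay near 0, and the median over the 46 genes was -0.02, as against -0.04 over all genes. DDX6, EXOSC3, EXOSC6, EXOSC9 and UPF2 were called lower with each of ActD, AZ-5576 and JQ1, comparisons that share the same 2 DMSO libraries. The log2 values with ActD, AZ-5576 and JQ1 were -0.62, -0.54 and -0.66 for UPF2, -0.52, -0.47 and -0.57 for DDX6, -0.63, -0.45 and -0.45 for EXOSC3, -0.52, -0.36 and -0.53 for EXOSC9, and -0.29, -0.45 and -0.34 for EXOSC6. DCP1A and EXOSC4 were called with ActD and AZ-5576 and not with JQ1.

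**Figure D3:**
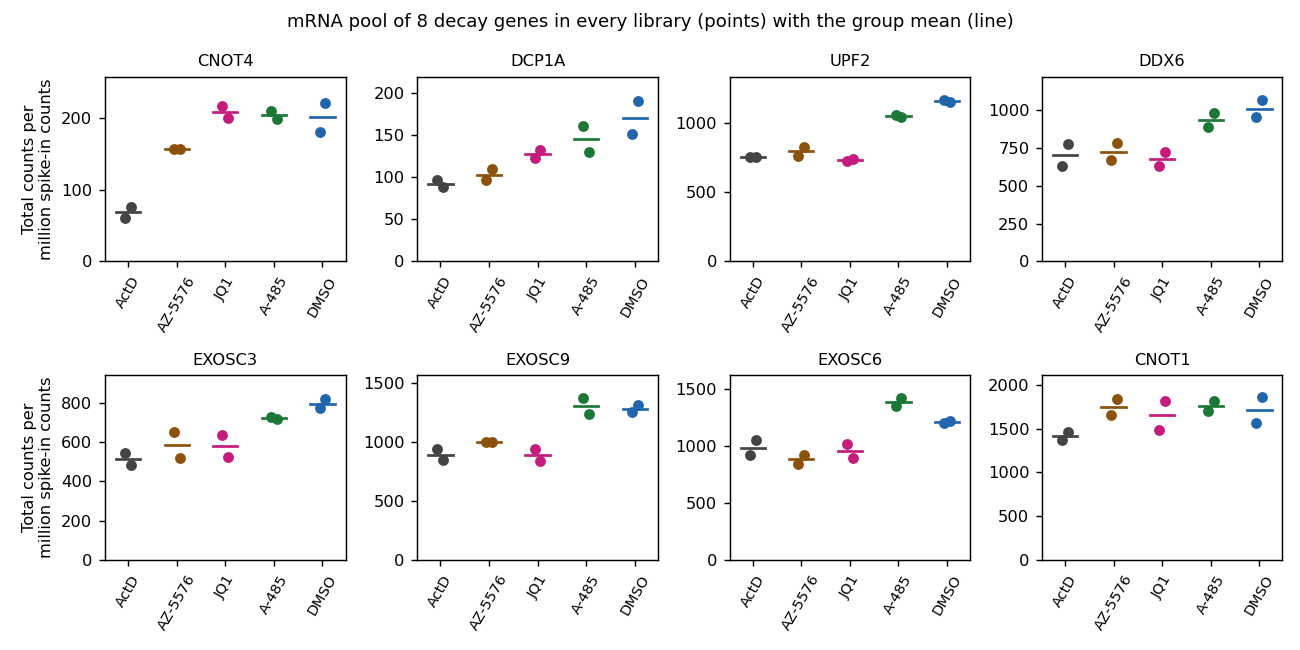
Total counts per 1000000 spike-in counts (y axis, from 0) of 8 decay genes in each of the 10 libraries, by group; points are libraries and lines are group means. CNOT4 averages 156 with AZ-5576 and 68.2 with ActD, against 201 with DMSO, DCP1A is low with ActD and AZ-5576, and UPF2, DDX6, EXOSC3, EXOSC9 and EXOSC6 are low with ActD, AZ-5576 and JQ1; CNOT1 was not called.

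Decay genes with a high labelled share in DMSO tended to stand lower in the pool with ActD. Across the 45 genes, the labelled share in DMSO and the log2 change in total RNA with ActD had a Pearson r of -0.74 and a Spearman rho of -0.59, and without CNOT4 the values were -0.56 and -0.56 (n = 44). With AZ-5576 they were -0.42 and -0.51, and with JQ1 0.09 and -0.11. These are descriptions across genes, which are not independent replicates, and both axes use the total counts of the same 2 DMSO libraries. Values for 2 genes of like share may be set side by side. SMG1, with a share of 20.8% ± 3.09 (SD, n = 2), stood at -0.44 ± 0.15 with ActD and -0.38 ± 0.15 with AZ-5576. DCP1A, with a share of 20.1% ± 1.31, stood at -0.88 ± 0.18 and -0.73 ± 0.18 with the same drugs, and the difference between the genes was not tested. Gene length, over the same genes, had an r of -0.39 and a rho of -0.43 with the ActD change (46 genes), and of 0.09 and 0.16 with the labelled change with JQ1 (42 genes).

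**Figure D4:**
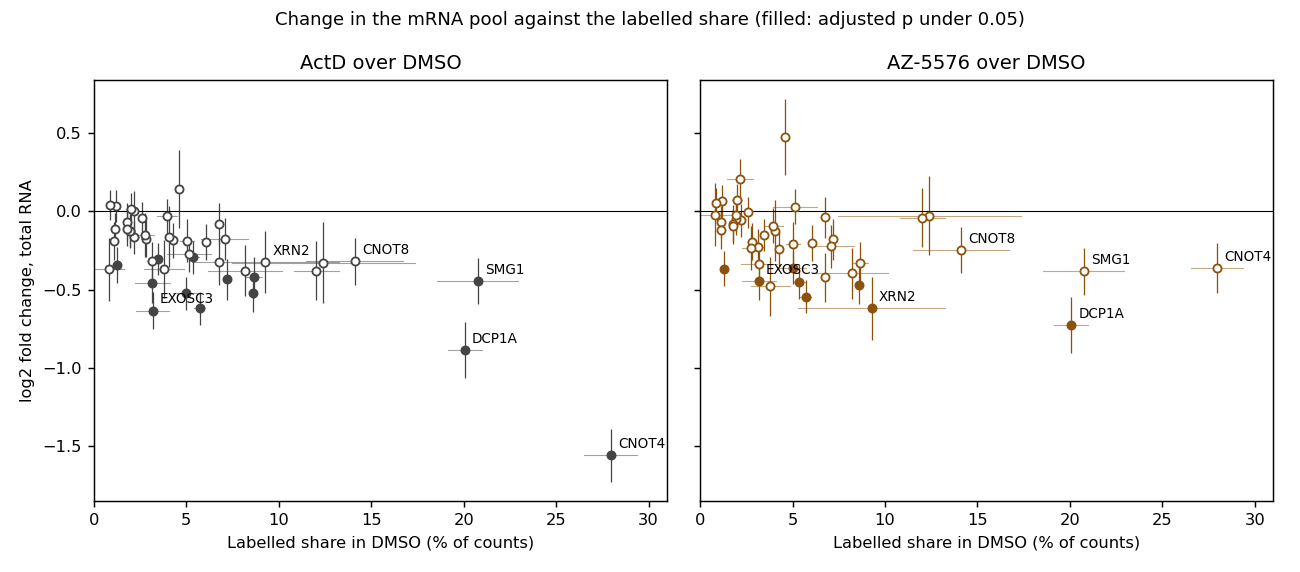
Labelled share in DMSO (x axis, percent of a gene's counts; thin horizontal lines join the 2 DMSO libraries) against the log2 fold change in total RNA (y axis; bars are standard errors) for 45 decay genes, with ActD (left) and AZ-5576 (right); filled points have an adjusted p under 0.05. CNOT4, at a share of 27.9%, lies at -1.56 with ActD and at -0.36 with AZ-5576.

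A second list holds 67 other genes of mRNA decay. It covers adaptors, RNA-binding proteins, surveillance factors and exosome cofactors, of which 60 could be tested in labelled and 67 in total RNA. In labelled RNA, edgeR called 60 of 60 lower for ActD (background 99.2%) and 59 for AZ-5576 (98.3% of the list, background 94.7%), with 0 higher for either drug. JQ1 gave 20 lower (33.3%, background 28.6%) and 2 higher (3.33%, background 1.26%), and A-485 gave 3 lower (5.00%, background 4.86%) and 0 higher, shares near the background. The JQ1 counts were 1 lower and 7 higher on TMM scaling, and 10 lower and 0 higher without DMSO replicate 2. The 3 genes called with A-485 were the AU-rich element binding proteins ZFP36L2 (112 and 100 counts with A-485, 260 and 268 with DMSO; -1.41 ± 0.25) and ZFP36L1 (80 and 53, against 115 and 129; -0.97 ± 0.32), and the antiproliferative CCR4-NOT partner TOB1 (9 and 16, against 17 and 59; -1.70 ± 0.56). The call of ZFP36L1 was lost without any of the 4 libraries and that of TOB1 without any but DMSO replicate 1, TOB1 standing at -0.50 without DMSO replicate 2. The count was 1 on TMM scaling, with a replicate block and without each of the 4 libraries other than DMSO replicate 1, where it was 2.
In total RNA, edgeR called 27 of the 67 lower for ActD, which was 40.3% of the list, beside 28.3% of the 46 and 19.7% of all genes, a difference that was not tested. The count was 18 on TMM scaling and 18 without DMSO replicate 2. For AZ-5576 there were 21 lower (31.3%, background 12.9%) and 1 higher, for JQ1 12 lower (17.9%, background 7.35%) and 1 higher, and for A-485 3 lower (4.48%, background 1.20%) and 0 higher. The JQ1 count was 5 lower and 3 higher on TMM scaling and 4 lower without DMSO replicate 2, and the A-485 count was 1 without either A-485 library or DMSO replicate 2. PELO, the ribosome rescue factor, had 91 and 113 total counts in the ActD libraries, 45 and 44 in the AZ-5576 libraries, 134 and 82 in the JQ1 libraries, and 244 and 308 in the DMSO libraries, at log2 values of -1.62, -2.70 and -1.58 over DMSO for the 3 drugs in that order. ZFP36, another AU-rich element binding protein, had 3 and 3 counts with ActD and 1 and 3 with AZ-5576, against 46 and 38 with DMSO. BTG2, a CCR4-NOT partner, had 1 and 2 counts with AZ-5576 and 17 and 35 with ActD, against 36 and 28 with DMSO.
Between AZ-5576 and ActD, 4 of the 67 were called lower with AZ-5576 (5.97%, background 0.371%) and 2 higher (2.99%, background 2.00%). The 4 were BTG2, ZFP36L2 (-1.27), PELO (-1.08) and BTG3 (-1.01). ZFP36L2 and BTG3 held without each of the 4 libraries in turn, PELO was lost without any of them, and BTG2 was lost without AZ-5576 replicate 1 or ActD replicate 2. The lower calls numbered 2 without either of those libraries, and the higher calls 0 or 1 without any of the 4.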

How the data were processed

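K562 SLAM-seq libraries were analysed from 3 deposited tables of raw counts per gene, not normalised: all human reads, human reads with T-to-C conversions, and Drosophila spike-in reads, per the file headers. The submitters' processing notes name Trim Galore 0.6.5, bedtools and bcl2fastq 2.17.1.14, with hg38 and dm6; aligner and conversion caller: not given in the sources used here. The libraries were QuantSeq 3′ mRNA, per the labels' protocols, so counts are per transcript end and levels were not compared between genes. Replicates of each group differed beyond sampling noise (chi-square per degree of freedom 4.13 to 12.5), and all 10 libraries and every column of values were used.

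Each comparison was tested with edgeR 4.0.16 in R 4.3.3 (quasi-likelihood, robust, two-sided), with spike-in totals as library sizes, all 10 libraries in 1 fit with 5 residual degrees of freedom, a minimum of 10 counts per gene in 2 or more libraries, and p-values adjusted by Benjamini-Hochberg over all genes tested (7996 labelled, 14572 total; threshold 0.05). Biological coefficients of variation were 24.8% labelled and 10.9% total. An exact permutation of 2 against 2 libraries cannot go below p = 0.33. The steps were tested on simulated data first. Genes at 0 counts over a group were given a floor of 3 counts; intervals cover counting error only. Alternatives were TMM scaling, DESeq2 1.42.0 with spike-in or its own size factors, no count filter, the 2 groups alone, a replicate block, and leaving out each library; an arm left with 1 library was assumed to vary like the other groups.

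Symbols and positions came from GENCODE 29. Named genes are a panel of main enzymes and scaffolds, up to 8 called genes with the largest changes in each comparison and the 5 highest and lowest labelled shares; further called genes were named after their values were seen. The genes and lists were chosen with earlier results of these data known. Protein sequences were not used here.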

Additional observations from a re-analysis of the deposited data

How the results depend on the processing

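Results were recomputed on 6 other settings and without each library in turn. Of 200 recomputed counts, 168 were equal to the reported one or within 1.5 times it. Many of the 168 had no gene called in either fit, so that figure overstates how stable the counts with calls were. Single-gene values kept direction and call in 1750 cases, lost the call in 143, gained it in 21 and reversed in 3 (named genes only).

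Scaling moved many of the counts. With TMM scaling and with DESeq2 on its own size factors, labelled genes called lower were 9 and 12 with ActD, 20 and 24 with AZ-5576, and 5 and 7 with JQ1, with 1 and 1 higher (in place of 42, 42, 21 and 0). Labelled genes higher with A-485 than with JQ1 were 7 and 5 in place of 20. Total genes lower were 3 and 4 with ActD, 4 and 4 with AZ-5576, and 3 and 3 with JQ1 (in place of 13, 8 and 7), and genes higher were 3 and 3 with ActD and 1 and 2 with AZ-5576 (in place of 0 and 0). Neither setting uses the spike-in. Of all 7996 labelled genes, TMM scaling called 711 lower with ActD, 2084 with AZ-5576 and 393 with JQ1. It called 482 higher with JQ1 and 507 higher with A-485 than with JQ1. Of all 14572 total genes, it called 1153, 1210 and 288 lower with ActD, AZ-5576 and JQ1, and 791 and 546 higher with ActD and AZ-5576. Differences between the 46 genes and all genes were not tested on this scale. On TMM scaling the medians of all genes moved up by 1.07, 2.89, 0.86 and 0.23 in labelled and by 0.25, 0.15, 0.20 and 0.05 in total RNA with ActD, AZ-5576, JQ1 and A-485, and down by 0.10 between AZ-5576 and ActD. Over all 46 genes the called log2 values that reversed were DIS3 (0.47) and PAN3 (0.50) with AZ-5576 and LSM1 with JQ1 (0.11), all labelled and on TMM scaling, and CNOT1 between A-485 and JQ1 (-0.0116, DESeq2 with its own size factors). In the fit of 2 groups alone, 2 labelled genes were lower with A-485; the cause was not tested.

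Leaving out 1 library, the counts of lower genes ran from 12 to 18 in labelled RNA with JQ1, and in total RNA from 5 to 13 with ActD, 2 to 10 with AZ-5576 and 3 to 8 with JQ1; genes higher with A-485 than with JQ1 ran from 10 to 16.

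Over genes, deviations of same-numbered libraries were little correlated (from -0.018 to 0.025 in labelled and from -0.008 to 0.135 in total RNA). That check cannot see a shift common to all genes. Total counts per spike-in count were higher in replicate 2 than in replicate 1 in each group. They were 7.69 and 8.23 with ActD, 8.16 and 8.61 with AZ-5576, and 7.57 and 8.07 with JQ1. A-485 had 8.36 and 8.48, and DMSO 8.18 and 8.99. The main fits did not use the numbers as pairs, and whether libraries are paired was not settled. With a replicate block, 14 total genes were lower with JQ1 in place of 7, and 2 were higher with AZ-5576 than with ActD in place of 1. The other counts of calls over the 46 genes stayed at 0 or within 1.5 times. With labelled counts under about 20 per library, a gene's value rests on few reads, and in these genes 1 library could decide a call.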
